A study of Mus musculus with 14 samples.

Results

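Interleukins are the secreted messengers of the immune system, and each acts on cells that carry its receptor. The group described here holds genes whose symbol is Il and a number, in many cases with further letters or digits. Only genes with a row that carries their symbol alone were taken. These were 76 of the 19937 genes tested, read by 80 probe sets; where a gene had several, the one with the highest mean over the 14 arrays was used. By role they were 38 ligands, 35 receptor chains and 3 others: the antisense transcript Il1bos and the soluble binding proteins Il18bp and Il22ra2. All 76 matched a mouse RefSeq gene by Entrez ID. Il1f5, Il1f6, Il1f8, Il1f9 and Il1f10 are older names of IL-36 and IL-38 genes. The rows of Il22 and Il4i1 carry several symbols, so these genes were left out, and Il1r1, Il1rl1, Il2rg, Il11ra1 and Il11ra2 were not analysed here, since no row used was named for them.

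RNA came from the epididymal fat pad, the visceral depot beside the testis, of 14 male mice of the C57BL6/J strain. EKO mice carry the apolipoprotein E (Apoe) genotype that the labels shorten to EKO; 4 of them had eaten Western diet, with 42% milk fat, and 4 normal diet. WT mice were wild type, 3 on Western diet and 3 on normal diet. Each diet began at 8 weeks of age and lasted 24 weeks, and each array read 1 mouse, called a biological replicate in the labels. How the EKO allele was made is not given in the labels, and body weight, pad weight and plasma lipids were not analysed here. RNA was extracted from the whole pad, so fewer cells of a type and less RNA per cell cannot be told apart in any value below.

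A receptor chain decides which cell can hear an interleukin, and most receptors need a pair of chains, one specific and one shared among several cytokines. Decoy receptors, receptor antagonists and binding proteins take up the ligand or the receptor without passing on a signal. In fat, macrophages, T cells, innate lymphoid cells, mesothelial cells and adipocytes all take part in this traffic, and obesity is known for a larger number of macrophages in the visceral depots.

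Signals are given as log2 RMA values, on which a difference of 1 is a 2-fold change, and a level of one gene cannot be set against that of another. Apoe itself lay between 9.84 and 10.3 in EKO mice on Western diet, between 9.46 and 9.99 in EKO mice on normal diet, between 13.1 and 13.6 in WT mice on Western diet and between 13.1 and 13.6 in WT mice on normal diet, so the arrays matched their genotype labels. The median array signal ranged from 7.92 to 8.10, and arrays of one group correlated at 0.976 to 0.995 over all rows. Array background was taken as the mean over 1208 olfactory and vomeronasal receptor rows. It ran from 6.75 to 6.84 on 5 arrays (replicates 1 and 3 of EKO on Western diet, replicate 2 of EKO on normal diet, replicate 1 of WT on Western diet and replicate 1 of WT on normal diet) and from 6.29 to 6.56 on the other 9. All 7 measured adipocyte markers were well above that level, with a mean signal of at least 13.28 on each of the 14 arrays, and 3 of the 5 measured epididymis markers (Spag11b, Adam7 and Rnase10) were at background in all 4 groups.

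The promoters are shown of the 4 genes whose diet call in WT held under every alternative that tested them. Each is 300 bases from RefSeq (GRCm38.p6), 250 before and 50 after the annotated start, written in the direction of transcription; the gene Il1rn has 3 annotated starts, of which the most upstream is printed. Capitals mark a match to one of 3 motifs searched on both strands: the AP-1 motif TGANTCA, the STAT motif TTCNNNGAA and the PU.1 core GAGGAA.
Il7r, chr15:9529827-9530126, minus strand: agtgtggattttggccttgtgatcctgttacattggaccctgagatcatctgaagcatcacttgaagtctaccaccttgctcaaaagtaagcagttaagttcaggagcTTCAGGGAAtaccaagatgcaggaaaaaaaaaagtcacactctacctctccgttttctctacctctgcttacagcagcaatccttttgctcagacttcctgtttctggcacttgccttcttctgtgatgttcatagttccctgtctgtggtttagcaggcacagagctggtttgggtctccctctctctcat
Il13ra2, chrX:147429143-147429442, minus strand: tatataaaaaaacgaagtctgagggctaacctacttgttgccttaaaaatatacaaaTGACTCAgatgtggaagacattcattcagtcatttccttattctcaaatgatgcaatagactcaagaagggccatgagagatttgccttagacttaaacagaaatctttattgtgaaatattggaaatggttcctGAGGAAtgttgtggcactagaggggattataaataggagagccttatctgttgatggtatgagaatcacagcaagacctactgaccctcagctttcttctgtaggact
Il1rn, chr2:24336610-24336909, plus strand: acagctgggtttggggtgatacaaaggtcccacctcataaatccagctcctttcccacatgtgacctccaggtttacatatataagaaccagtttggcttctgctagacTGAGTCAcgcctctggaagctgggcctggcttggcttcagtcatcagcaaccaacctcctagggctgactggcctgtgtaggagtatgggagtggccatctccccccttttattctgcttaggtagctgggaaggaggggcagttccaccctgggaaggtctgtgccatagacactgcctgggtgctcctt
Il17re, chr6:113458521-113458820, plus strand: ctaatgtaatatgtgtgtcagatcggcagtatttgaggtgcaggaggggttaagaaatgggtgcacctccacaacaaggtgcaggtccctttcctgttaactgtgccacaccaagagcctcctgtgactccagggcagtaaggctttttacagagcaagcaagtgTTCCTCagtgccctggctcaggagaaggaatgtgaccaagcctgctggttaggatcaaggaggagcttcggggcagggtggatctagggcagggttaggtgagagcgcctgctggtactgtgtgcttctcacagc

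The Il7r window holds 1 STAT match at position -142 from the start, Il13ra2 an AP-1 match at -193 and a PU.1 match at -58, Il1rn an AP-1 match at -141, and Il17re a PU.1 match on the other strand at -85. The windows of the other annotated Il1rn starts, not printed, hold no match to any of the 3 motifs. Among 32851 RefSeq mouse promoters of this length, 7.81% hold the AP-1 motif, 8.30% the STAT motif and 28.3% the PU.1 core. Of the 71 promoters listed for 59 of the 76 genes, 14 hold the AP-1 motif, 11 the STAT motif and 23 the PU.1 core. A match is a run of letters in this window and says nothing of binding.

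Many interleukin ligands gave a signal at or near background in whole fat. A gene was counted as at background in a group when its group mean was at or under 6.84, the highest array background. By that measure 51 of the 76 genes were above background in all 4 groups, 3 in some groups and 22 in none. The cut is strict, since most arrays had a lower background than 6.84. Of the 22, Il20ra was above its own array's background on 14 arrays, Il1f9 and Il23r on 11 and Il12rb2 on 10. Others, such as Il6 and Il10, were above it on 0. The 22 were 13 of 38 ligands, 7 of 35 receptor chains, Il1bos and Il22ra2. Among them were Il6, the fever and acute-phase cytokine often studied in fat; Il10, the anti-inflammatory cytokine; Il1a; the T-cell growth factor Il2; and Il3, Il5, Il11, Il20 and Il21. The others at background were Il1f6, Il1f8, Il1f9, Il1f10, Il12rb2, Il13ra2, Il1rapl1, Il1rapl2, Il20ra, Il23r and Il5ra. Il6 signal stayed between 4.99 and 5.04 in all 4 group means, and that of Il10 between 5.42 and 5.57.

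**Figure D1:**
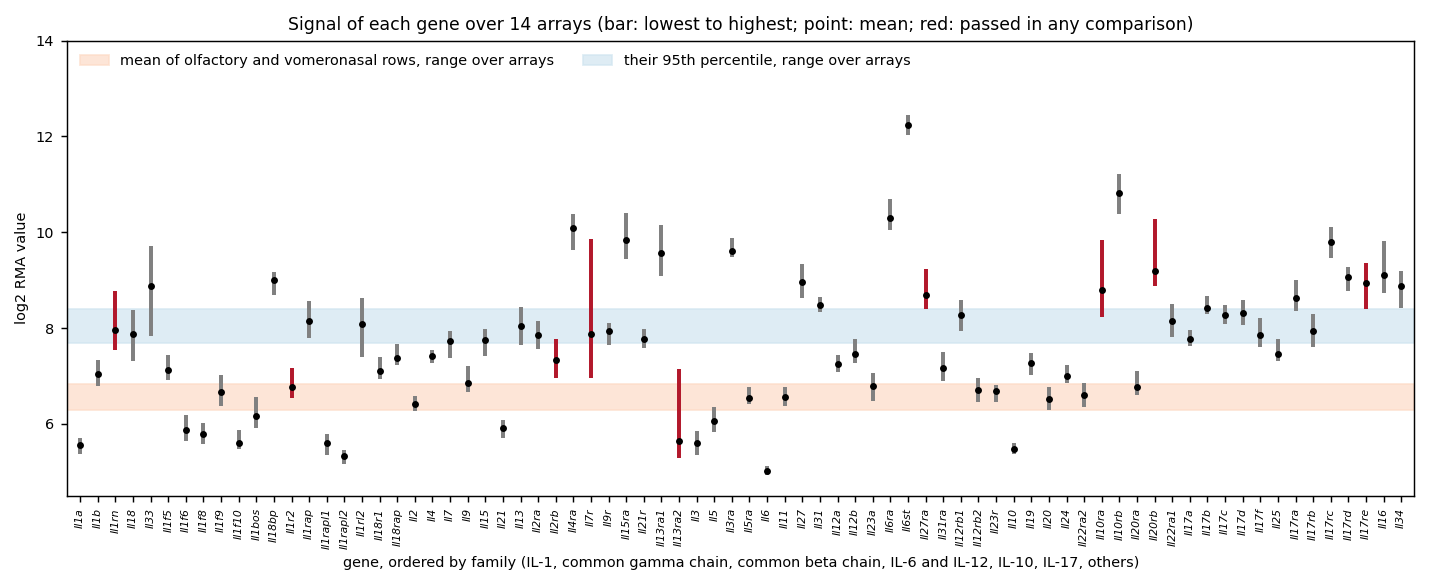
Log2 RMA signal of each of the 76 genes, by family; the bar runs from the lowest to the highest of the 14 arrays, the point is the mean, and red marks genes that passed in any comparison. The orange band is the range over arrays of the background mean (6.29 to 6.84) and the blue band that of its 95th percentile; Il6, Il10 and Il13ra2 have means below the orange band, while 19 genes, Il6st among them, were above the blue threshold on every array.

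At the bright end, 19 genes exceeded the 95th percentile of the olfactory and vomeronasal rows on all 14 arrays, and 13 of these were receptor chains. They included Il6st (gp130), the signalling chain shared by the IL-6 family, with group means of 12.25 ± 0.13 in EKO on Western diet, 12.18 ± 0.13 in EKO on normal diet, 12.23 ± 0.02 in WT on Western diet and 12.30 ± 0.19 in WT on normal diet (SD, n = 4, 4, 3 and 3). Il10rb, the chain shared by receptors of the IL-10 family, averaged 10.75 ± 0.22, 10.70 ± 0.26, 11.13 ± 0.10 and 10.79 ± 0.17 in the same groups. Others were Il6ra, Il4ra, Il3ra and Il17rc. None of these 6 passed the test in any comparison.

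Western diet changed a small set of these genes in WT fat, almost all of them receptor chains. The receptor for the lymphocyte survival factor IL-7, Il7r, rose 4.67-fold, and the IL-1 receptor antagonist Il1rn, the IL-10 receptor chain Il10ra, and Il20rb, Il2rb and Il27ra rose by smaller amounts. The probe set of the IL-13 decoy receptor Il13ra2 also gave a higher signal, and Il17re, the receptor chain for the epithelial cytokine IL-17C, fell. In all, 8 of the 76 genes passed at a limma adjusted p under 0.05, taken over all 19937 genes, which is 10.5% of the group, while 5.49% of all genes passed. Of the 8, 7 were higher and 1 lower, where 3.19% of all genes were higher and 2.3% lower. That split depended on the fit, with 11 higher and 11 lower under array weights. By role they were 7 of 35 receptor chains and 1 of 38 ligands. The median log2 difference of the 76 was -0.03, against -0.02 over all genes. An unadjusted p under 0.05 was found for 21 of the 76 and for 3379 of all 19937 genes. The count of 8 was 4 without replicate 2 of WT on normal diet or replicate 3 of WT on Western diet, and 5 without replicate 1 or 3 of EKO on normal diet or replicate 3 or 4 of EKO on Western diet.

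Il7r forms the IL-7 receptor with the common gamma chain and the receptor for TSLP with Crlf2. Its signal was 7.68, 7.41, 7.09 and 7.34 in EKO mice on Western diet and 7.30, 6.96, 7.51 and 7.85 in EKO mice on normal diet. It was 9.85, 9.21 and 9.76 in WT mice on Western diet and 7.49, 7.29 and 7.37 in WT mice on normal diet. The 3 WT mice on Western diet stood above all 11 others with no overlap, and the other 3 groups overlapped. Il7r passed the 95th percentile of the olfactory and vomeronasal rows on 4 of the 14 arrays. It was below that level in each WT mouse on normal diet (8.25, 7.84 and 7.83 on those arrays), so its fold change rests on a dim baseline. The difference between WT mice on Western and on normal diet was 2.22 ± 0.21 on the log2 scale (SE; adjusted p = 6.07e-05, limma). On arrays of lower background it was 2.15 and between the pair of higher background 2.36. Its ligand Il7 differed by -0.18 ± 0.12 (adjusted p = 0.561), and Crlf2 by 0.40 ± 0.13 (adjusted p = 0.0865), neither passing.

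Il13ra2 binds IL-13 without the signalling tail of the other IL-13 receptors. Its probe set read 5.37, 5.30, 5.39 and 5.40 in EKO mice on Western diet and 5.37, 5.40, 5.37 and 5.36 in EKO mice on normal diet. It read 6.62, 6.19 and 7.14 in WT mice on Western diet and 5.43, 5.28 and 5.44 in WT mice on normal diet. Signal was thus higher in each WT mouse on Western diet than in any other animal, yet it passed its own array's background on 1 of those 3 arrays only, and no fold change is given. Both group means were at background, so the test compares probe set signals and gives no measured level of the transcript. The difference in probe set signal was 1.27 ± 0.16 (log2, SE; adjusted p = 0.000628). The signalling chain Il13ra1, well above background, differed by 0.55 ± 0.21 (adjusted p = 0.160), and Il4ra by 0.12 ± 0.15, both without passing.

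Il1rn blocks the IL-1 receptor and was the only ligand that passed. Its signal was 8.26, 7.74, 7.69 and 7.61 in EKO mice on Western diet and 7.77, 7.83, 7.54 and 7.69 in EKO mice on normal diet. It was 8.77, 8.75 and 8.66 in WT mice on Western diet and 7.81, 7.66 and 7.72 in WT mice on normal diet. Replicate 1 of the EKO mice on Western diet came nearest to the WT mice on Western diet, without reaching them. Between the WT groups Il1rn rose by 0.99 ± 0.14 (log2, SE; adjusted p = 0.00101). Its baseline was dim too: Il1rn passed the 95th percentile of the olfactory and vomeronasal rows on 3 of the 14 arrays. The agonist Il1b differed by 0.09 (95% interval -0.18 to 0.36), and the IL-1 decoy receptor Il1r2 by 0.30 ± 0.11 (adjusted p = 0.157). Il1b was above background in all 4 groups, but narrowly, with group means of 6.93 to 7.12. It passed the 95th percentile of the olfactory and vomeronasal rows on 0 of the 14 arrays, so a change in Il1b could have gone undetected.

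Il10ra is the ligand-binding chain of the IL-10 receptor. Its signal was 8.22, 8.84, 8.74 and 8.70 in EKO mice on Western diet and 8.69, 8.31, 8.75 and 9.13 in EKO mice on normal diet. It was 9.19, 9.27 and 9.84 in WT mice on Western diet and 8.37, 8.45 and 8.58 in WT mice on normal diet. All WT mice on Western diet again exceeded the rest, the nearest being replicate 4 of the EKO mice on normal diet. The rise between the WT groups was 0.97 ± 0.21 (log2, SE; adjusted p = 0.0141). Without replicate 2 of WT on normal diet the adjusted p was 0.0538 (0.96), and without replicate 3 of WT on Western diet 0.0866 (0.76). The partner chain Il10rb differed by 0.34 ± 0.16 (adjusted p = 0.287).

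Il17re pairs with Il17ra to bind IL-17C and is known from epithelia. Its signal was 9.14, 8.83, 8.97 and 9.05 in EKO mice on Western diet and 9.06, 9.01, 9.06 and 9.06 in EKO mice on normal diet. It was 8.60, 8.39 and 8.51 in WT mice on Western diet and 9.23, 8.99 and 9.35 in WT mice on normal diet. Here the WT mice on Western diet lay below every other animal. The difference between the WT groups was -0.69 ± 0.10 (log2, SE; adjusted p = 0.00157). Its ligand Il17c differed by -0.10 ± 0.11 and its partner Il17ra by -0.06 ± 0.15, while Il17rb, Il17rc and Il17rd had values of -0.33, -0.23 and -0.27, none of them passing.

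A further 3 receptor chains passed narrowly. Il20rb, the second chain of the receptors for IL-19, IL-20 and IL-24, read 9.34, 9.04, 9.13 and 9.06 in EKO mice on Western diet and 9.0, 9.13, 8.88 and 8.93 in EKO mice on normal diet. It read 9.13, 9.85 and 10.27 in WT mice on Western diet and 9.07, 9.06 and 8.92 in WT mice on normal diet. Replicate 1 of WT on Western diet was barely above the WT mice on normal diet and within the EKO range, while replicates 2 and 3 were above all others. The difference between the WT groups was 0.74 ± 0.20 (log2, SE; adjusted p = 0.0450). Its other probe sets gave 0.86 and 1.0. In both of them the same replicate was low. That replicate lay on an array of higher background: the difference was 1.08 on arrays of lower background (adjusted p = 0.00171) and 0.06 between the pair of higher background. The difference was 1.05 without replicate 1 of WT on Western diet (adjusted p = 0.000351), 0.69 without replicate 2 (adjusted p = 0.147) and 0.48 without replicate 3 (adjusted p = 0.211). Of the 14 arrays left out one at a time, 11 ended the call, the EKO arrays among them at adjusted p up to 0.0616 and the WT arrays on normal diet at up to 0.161. The call held without replicate 1 of WT on Western diet, replicate 2 of EKO on normal diet or replicate 1 of EKO on Western diet.

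Il2rb, the signalling chain for IL-2 and IL-15, read 7.11, 7.67, 7.29 and 7.15 in EKO mice on Western diet and 7.20, 7.33, 7.29 and 7.56 in EKO mice on normal diet. It read 7.78, 7.36 and 7.74 in WT mice on Western diet and 6.96, 7.18 and 7.06 in WT mice on normal diet. The WT groups did not overlap, but the EKO mice covered much of the span between them. Il2rb was above mean background on all 14 arrays, but above the 95th percentile of the background rows on 0. The difference between the WT groups was 0.56 ± 0.15 (log2, SE; adjusted p = 0.0452), and 10 of the 14 single-array omissions ended the call, with adjusted p up to 0.192; it held without replicate 2 of WT on Western diet, replicate 4 of EKO on normal diet and replicates 1 and 2 of EKO on Western diet. On the arrays of lower background it was 0.43 (adjusted p = 0.197), and between the pair of higher background 0.82. Its cytokine Il15 and the specific chain Il15ra had differences of 0.19 ± 0.11 and -0.42 ± 0.17, and Il2ra one of 0.15 ± 0.13, none of which passed.

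Il27ra, the specific chain of the IL-27 receptor, read 8.62, 8.40, 8.62 and 8.62 in EKO mice on Western diet and 8.63, 8.56, 8.60 and 8.78 in EKO mice on normal diet. It read 8.74, 9.11 and 9.24 in WT mice on Western diet and 8.49, 8.47 and 8.77 in WT mice on normal diet. The WT groups overlapped, since replicate 1 on Western diet lay just under replicate 3 on normal diet. The difference was 0.46 ± 0.13 (log2, SE; adjusted p = 0.0492), and 11 of the 14 single-array omissions ended the call, with adjusted p up to 0.243. It held without replicate 3 of WT on normal diet, replicate 1 of WT on Western diet or replicate 4 of EKO on normal diet. Arrays of lower background gave 0.56 (adjusted p = 0.0233) and the pair of higher background 0.25. The ligand Il27 differed by -0.03 ± 0.15.

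**Figure D2:**
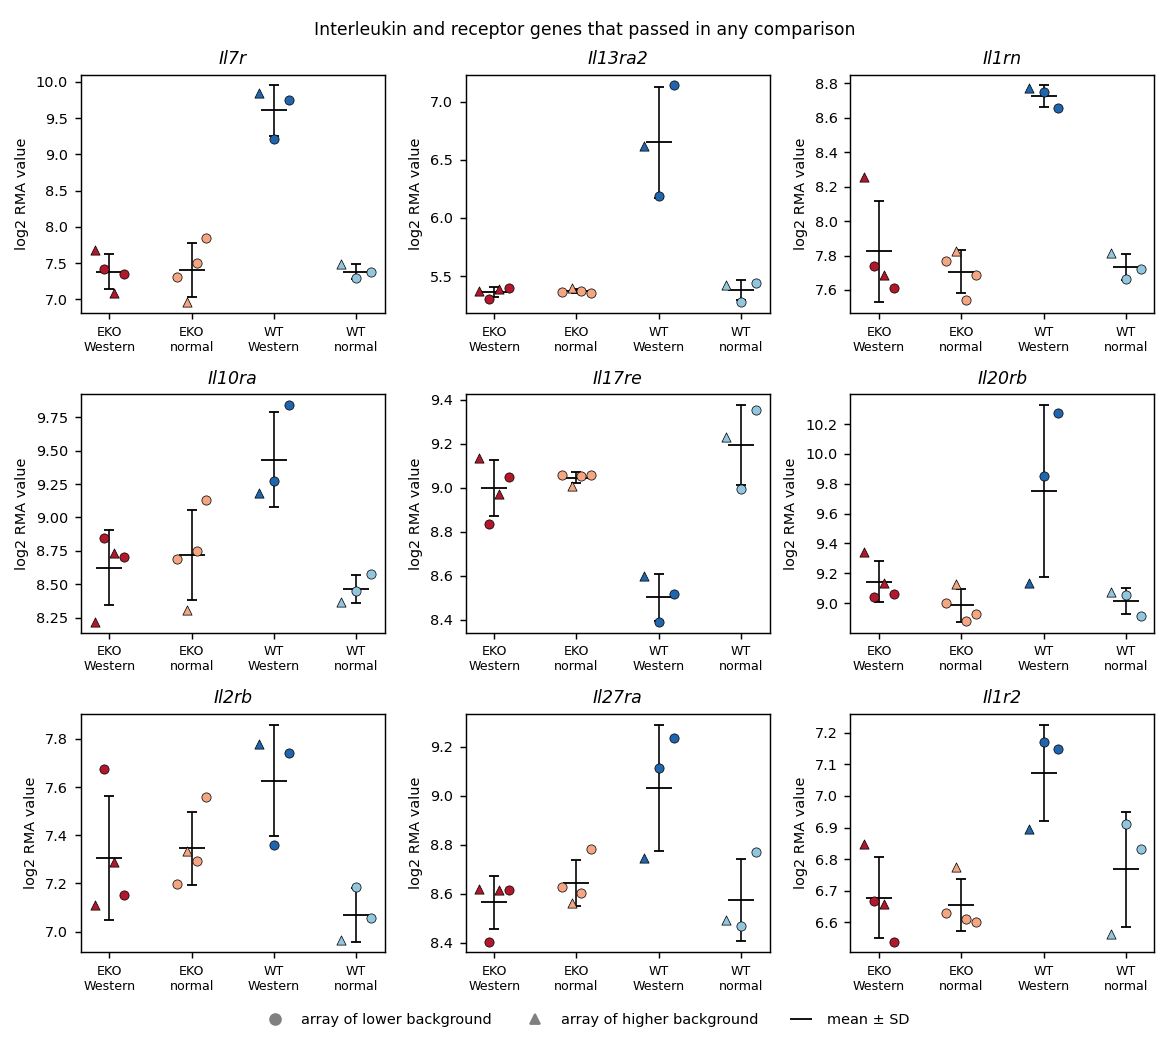
Log2 RMA signal on each array for the 9 genes that passed in any comparison, with EKO groups left of WT groups and Western diet left of normal diet; bars are mean ± SD, and triangles mark the 5 arrays of higher background. The 3 WT mice on Western diet stand apart from all other animals for Il7r, Il13ra2, Il1rn, Il10ra and Il17re, whereas for Il20rb, Il2rb, Il27ra and Il1r2 they overlap at least one other group.

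The remaining 68 genes did not pass between the WT groups, with differences from -0.55 to 0.55. At the lower end stood Il18, an inflammasome-dependent cytokine, at -0.55 ± 0.16 (adjusted p = 0.0632), Il16, a chemoattractant for CD4 cells, at -0.49 ± 0.17 (adjusted p = 0.111), and Il34, the second ligand of the macrophage receptor Csf1r, at -0.39 ± 0.14 (adjusted p = 0.146). In each of these cases all WT mice on Western diet were below all WT mice on normal diet. Il33, the alarmin that supports innate lymphoid cells of fat, had a value of -0.52 ± 0.30 (adjusted p = 0.445), with wide spread and overlapping groups. Across the 76 genes the WT groups did not overlap for 9 that were higher and 10 that were lower on Western diet, where 8.77% and 11.3% of all genes were so. The type 2 cytokines Il4 and Il13 had differences of 0.01 ± 0.09 and -0.10 ± 0.16, and Il17a one of 0.05 ± 0.10.

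In EKO fat the same diet gave no difference that passed in any of the 76 genes, nor in any of all genes tested (0%). The 4 animals on Western diet and the 4 on normal diet overlapped for every member, while 0.973% of all genes were without overlap and higher and 1.59% without overlap and lower. Differences ran from -0.43 ± 0.26 for Il33 to 0.19 ± 0.08 for Il24, an IL-10 family cytokine near background. Il24 was the only one of the 76 with an unadjusted p under 0.05 (adjusted p = 0.946, limma), where 883 of all 19937 genes had one. For the genes that passed in WT, the EKO differences were -0.03 ± 0.18 for Il7r, -0.01 ± 0.14 for Il13ra2, 0.12 ± 0.12 for Il1rn, -0.09 ± 0.18 for Il10ra, 0.16 ± 0.17 for Il20rb, -0.04 ± 0.13 for Il2rb, -0.08 ± 0.11 for Il27ra and -0.05 ± 0.09 for Il17re. The 95% interval for Il7r in EKO ran from -0.41 to 0.36.

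**Figure D3:**
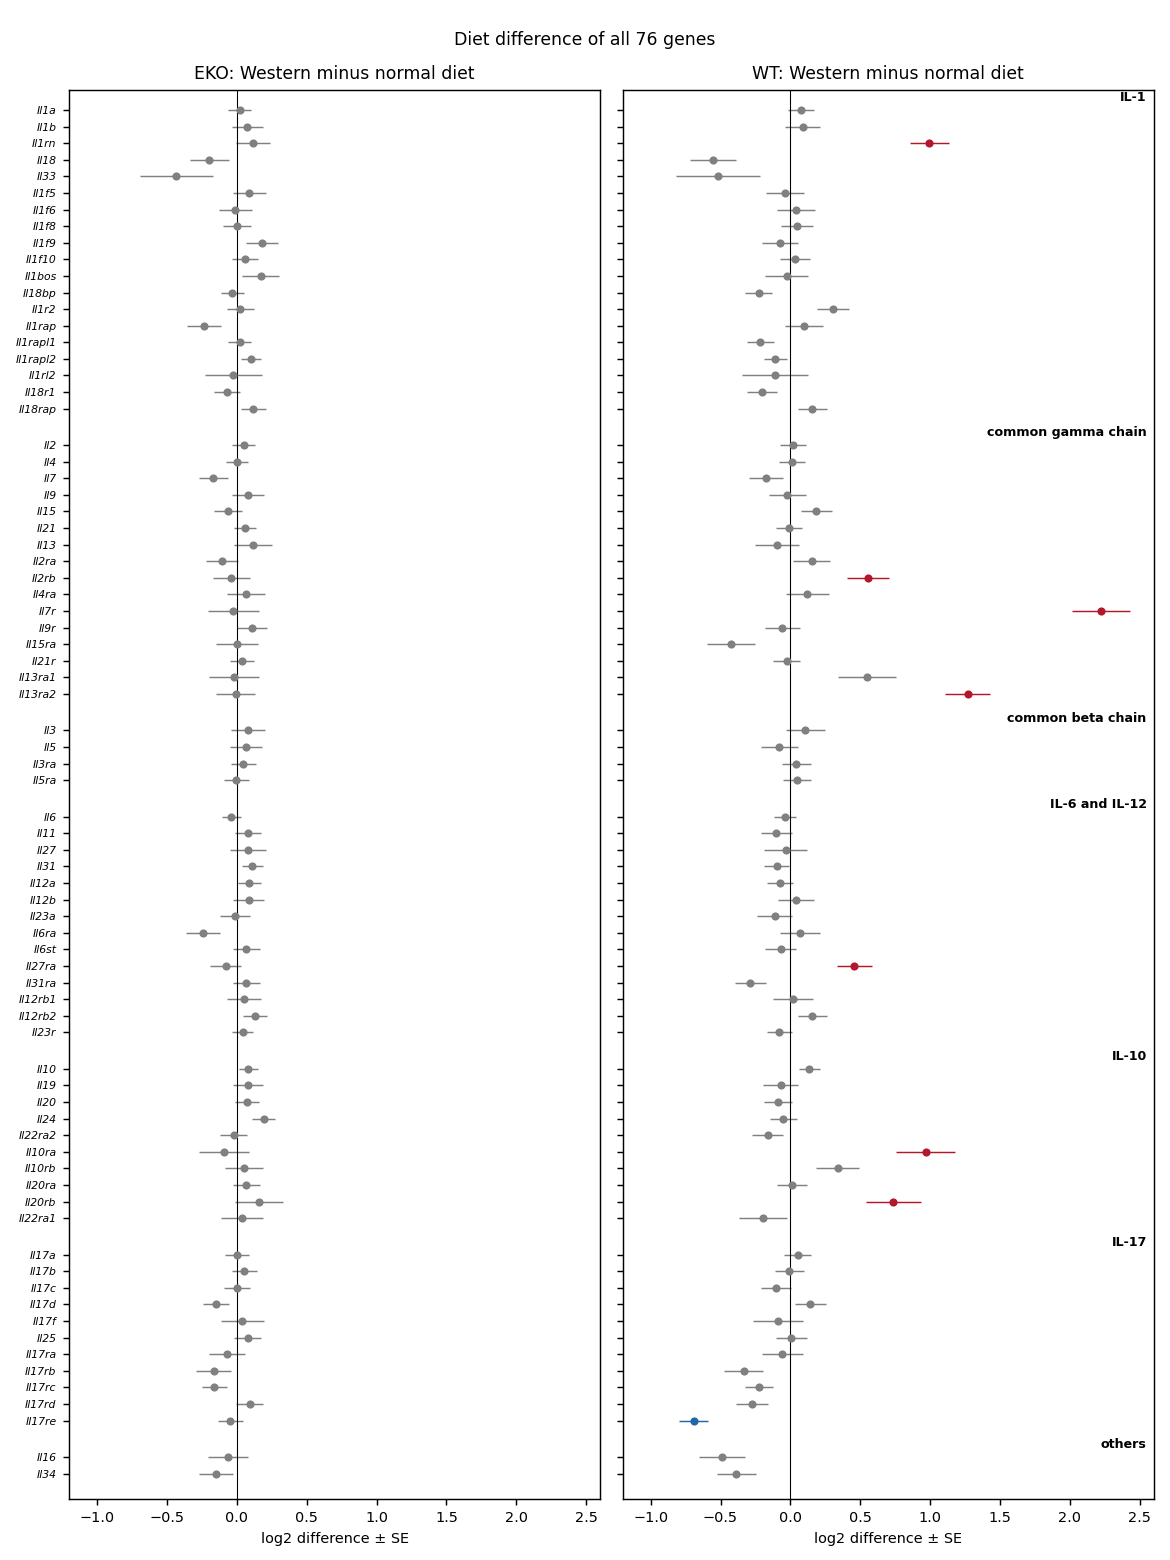
Log2 difference between Western and normal diet for all 76 genes, with EKO in the left panel and WT in the right, as estimate ± SE; red marks genes that passed and were higher, blue those that passed and were lower. In EKO all values lie between -0.43 and 0.19 and none passed, while in WT Il7r reached 2.22 and Il17re -0.69.

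The diet effect in EKO minus that in WT was tested directly as the interaction. It passed for 2 of the 76 genes, Il7r and Il13ra2, both lower, where 0.482% of all genes passed, 0.145% higher and 0.336% lower. For Il7r the value was -2.25 ± 0.28 (log2, SE; adjusted p = 0.00237), and for the Il13ra2 probe set, at background in all 4 groups, -1.28 ± 0.22 (adjusted p = 0.0168). Without replicate 2 of WT on normal diet the Il13ra2 value was -1.22 (adjusted p = 0.0603), and on arrays of lower background -1.32 (adjusted p = 0.0614). Il1rn at -0.88 ± 0.18 (adjusted p = 0.0522) and Il17re at 0.64 ± 0.14 (adjusted p = 0.0532) missed the threshold, as did Il10ra at -1.06 ± 0.28 (adjusted p = 0.114). For these 3 and for Il20rb, Il2rb and Il27ra, a diet effect that differs between the genotypes was therefore not shown by this fit. Some of them passed under alternatives, as given at the end. In this contrast 10 of the 76 genes had an unadjusted p under 0.05, where 2162 of all 19937 genes had one. Without replicate 1 of WT on Western diet 7 of the 76 passed, where 2.5% of all genes did.

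On normal diet no gene of the 76 passed between EKO and WT mice by the adjusted test, and 0.00502% of all genes passed. None of the 76 had an unadjusted p under 0.05 either, where 226 of all 19937 genes had one. Differences of EKO from WT ranged from -0.45 ± 0.22 for Il1rl2, the IL-36 receptor, to 0.28 ± 0.14 for Il2rb. The groups did not overlap for 2 genes: Il2rb, higher in EKO, and Il24, lower in EKO, where 0.848% of all genes were higher and 0.868% lower without overlap. Il7r differed by 0.02 ± 0.20, Il1rn by -0.03 ± 0.13 and Il10ra by 0.25 ± 0.20.

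On Western diet, EKO fat had lower signals than WT fat for Il7r, Il13ra2, Il1rn, Il10ra, Il27ra and Il1r2, and a higher one for Il17re. These were 7 of the 76 genes, or 9.21%, where 5.69% of all genes passed, with 1 higher (1.64% of all genes) and 6 lower (4.05%). Under quantile normalization 2 were higher and 6 lower, and under array weights 14 higher and 15 lower. By role they were 6 of 35 receptor chains and 1 of 38 ligands. This comparison uses the same 3 WT mice on Western diet as the diet comparison in WT, so the values are set side by side and neither is a second test of the other. The median difference of the 76 was 0.08, against 0.03 over all genes. An unadjusted p under 0.05 was found for 18 of the 76 and for 3844 of all 19937 genes. The count of 7 was 3 without replicate 2 of WT on Western diet and 4 without its replicate 3 or without replicate 4 of EKO on Western diet. All EKO mice were above all WT mice for 6 of the genes and below them for 8, where 7.93% and 8.71% of all genes were so.

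Il7r was 4.68-fold lower in EKO, a difference of -2.23 ± 0.20 (log2, SE; adjusted p = 3.06e-05). The Il13ra2 probe set differed by -1.28 ± 0.15 (adjusted p = 0.000303) and Il1rn by -0.90 ± 0.13 (adjusted p = 0.00127). Il10ra differed by -0.81 ± 0.20 (adjusted p = 0.0264). In the values by array given above, all 4 EKO mice on Western diet were below all 3 WT mice on Western diet for each of these genes. Il10ra lost its call without WT replicate 2 (adjusted p = 0.0614), WT replicate 3 (adjusted p = 0.186; value -0.60), EKO replicate 1 (adjusted p = 0.0722) or EKO replicate 4 (adjusted p = 0.0542).

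Il17re was higher in EKO by 0.50 ± 0.10 (log2, SE; adjusted p = 0.00889), with no overlap; without WT replicate 2 the value was 0.44 (adjusted p = 0.0604). Il27ra differed by -0.47 ± 0.12 (adjusted p = 0.0321), and 6 of the 14 single-array omissions ended that call, namely WT replicates 2 and 3 (adjusted p = 0.143 and 0.213) and each of the 4 EKO mice on Western diet (up to 0.0839). Its difference was -0.67 on arrays of lower background and -0.13 on those of higher background. Il2rb, at -0.32 ± 0.14 (adjusted p = 0.228), did not pass. Il20rb, at -0.61 ± 0.19 (adjusted p = 0.0759), did not pass either, although its other probe sets gave -0.93 and -0.91. It passed as the mean of its probe sets (-0.82, adjusted p = 0.0441), on arrays of lower background (-1.01, adjusted p = 0.00284), without WT replicate 1 (-0.92, adjusted p = 0.000582) and with array weights (-0.79, adjusted p = 1.42e-05).

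Il1r2, the decoy receptor that captures IL-1, read 6.85, 6.67, 6.66 and 6.54 in EKO mice on Western diet and 6.63, 6.78, 6.61 and 6.60 in EKO mice on normal diet. It read 6.90, 7.17 and 7.15 in WT mice on Western diet and 6.56, 6.91 and 6.83 in WT mice on normal diet. On Western diet the EKO mice were below the WT mice, with replicate 1 of each genotype close together and both on arrays of higher background. The difference was -0.39 ± 0.11 (log2, SE; adjusted p = 0.0427). Because the EKO mean was at background, the WT signal is given as at least 1.27-fold higher, where each EKO array counts at its own background mean or at the probe set's signal, whichever is higher. Its size differed between the array sets of unlike background. On arrays of lower background the difference was -0.56 (adjusted p = 0.00585), and on those of higher background -0.14. Of the 14 single-array omissions 8 ended the call, with adjusted p up to 0.215 without WT replicate 3 on Western diet; it held without replicate 1 of either genotype on Western diet, replicates 1 and 2 of WT on normal diet and replicates 2 and 4 of EKO on normal diet. Il1rap, the accessory chain of the IL-1 and IL-33 receptors, differed by -0.37 ± 0.13 (adjusted p = 0.120) without overlap. Il1b, near background, differed by 0.10 ± 0.12.

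**Figure D4:**
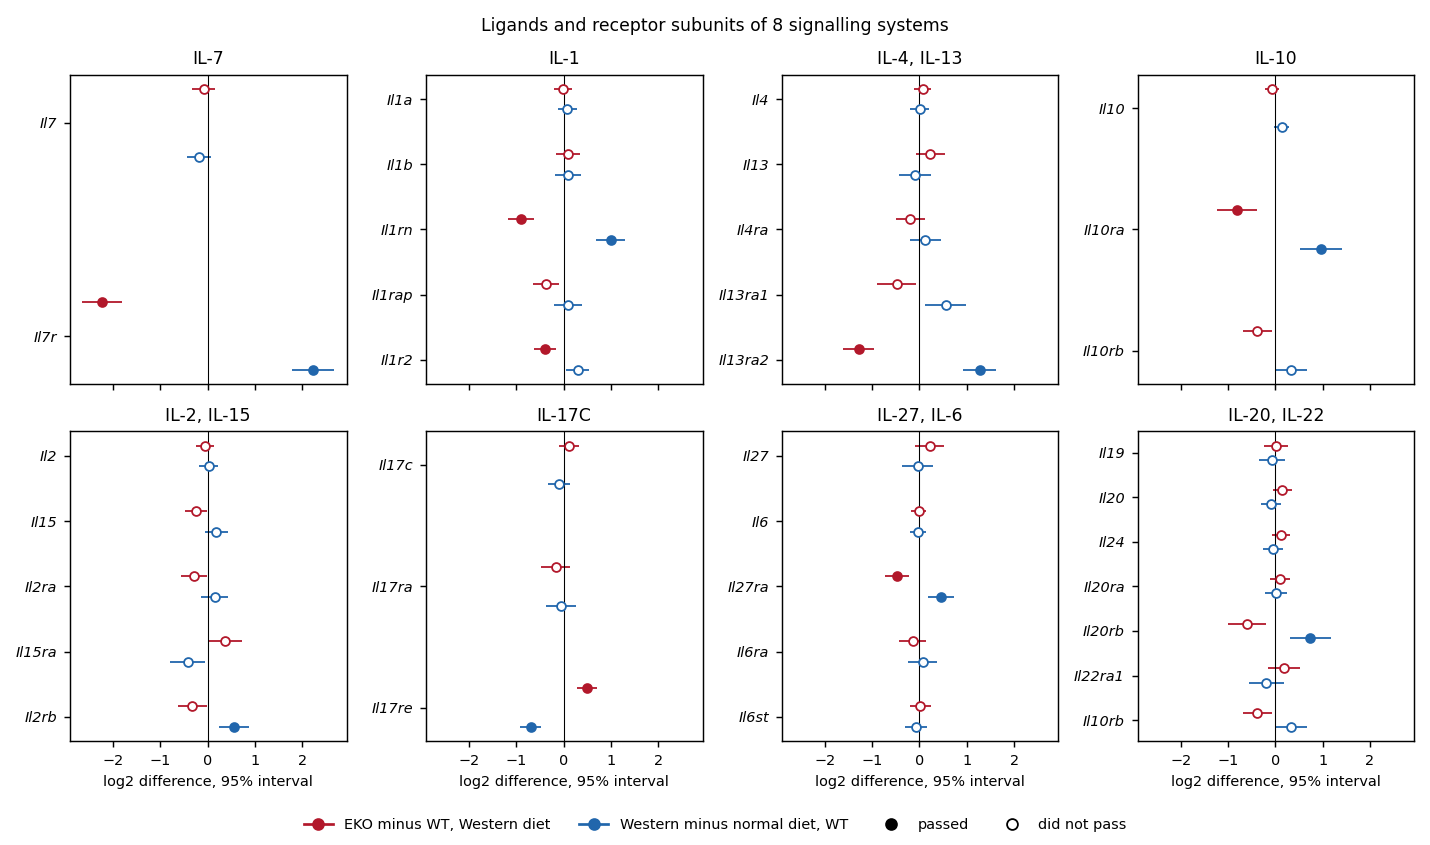
Log2 differences with 95% intervals for ligands and receptor chains of 8 cytokine systems; red is EKO minus WT on Western diet, blue is Western minus normal diet in WT, and filled points passed. The differences of Il7r (-2.23 and 2.22), Il1rn (-0.90 and 0.99) and Il10ra (-0.81 and 0.97) are not accompanied by a passed difference of Il7, Il1b or Il10. Il10 was at background in all 4 groups, and Il1b passed the 95th percentile of the background rows on 0 of the 14 arrays. A change in either could have gone undetected. Both contrasts use the 3 WT mice on Western diet.

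Among other genes of these pathways, chosen as a list of receptor subunits and ligands without an Il symbol (Crlf2, Csf2rb, Lifr, Osmr, Tslp and others), none of 13 measured passed in any of the 5 comparisons. Of 9 measured Janus kinases and STATs, none passed with diet in WT, and Jak1, which serves the gamma-chain and gp130 receptors, was lower in EKO than in WT on Western diet with a difference of -0.42 ± 0.11 (adjusted p = 0.0434). Of 11 measured inhibitors of cytokine signalling, Ptpn6, the phosphatase SHP-1 of blood cells, passed: it was higher on Western diet in WT by 0.56 ± 0.11 (adjusted p = 0.0101) and differed by -0.41 ± 0.11 between EKO and WT on Western diet (adjusted p = 0.0336).

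IL-1 beta and IL-18 are cut to their active form by the inflammasome. Of 17 measured adaptors and inflammasome genes, 3 were higher on Western diet in WT. These were Casp1, the protease that cleaves IL-1 beta and IL-18, at 1.30 ± 0.19 (log2, SE; adjusted p = 0.00127), the DNA sensor Aim2 at 0.82 ± 0.12 (adjusted p = 0.00117) and the adaptor Pycard at 0.46 ± 0.12 (adjusted p = 0.0434). Between EKO and WT on Western diet 2 of the 17 were lower, Casp1 at -0.92 ± 0.18 (adjusted p = 0.00768) and Aim2 at -0.62 ± 0.11 (adjusted p = 0.00477). The interaction passed for Aim2 alone of the 17, at -0.77 ± 0.16 (adjusted p = 0.0443). None of the 17 passed with diet in EKO or between the genotypes on normal diet.

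Some markers of immune cells moved in the same animals. For comparison, 5.49% of all genes passed with diet in WT and 5.69% between the genotypes on Western diet. Of 10 macrophage markers 4 (Adgre1, Cd68, Mpeg1 and Fcgr1) were higher on Western diet in WT, and 5 were lower in EKO than in WT on Western diet. With diet in WT 9 of the 10 had differences above 0, and 1 was below 0, without overlap of the groups. Between the genotypes on Western diet 9 were below 0 and 1 above. None of the 10 was at background. Their mean signal was 9.65 to 10.2 for EKO mice on Western diet, 9.34 to 10.3 for EKO mice on normal diet, 10.4 to 10.9 for WT mice on Western diet and 9.67 to 9.97 for WT mice on normal diet, so the WT mice on Western diet were above all others, as they were for Il7r, Il1rn and Il10ra. Of 9 measured T-cell markers 1, Cd3e, was higher on Western diet in WT, at 0.40 ± 0.11 (adjusted p = 0.0418), and Cd3d and Trat1 were at background. The mean T-cell signal was 7.05 to 7.23, 7.0 to 7.18, 7.09 to 7.32, and 6.99 to 7.06 in those 4 groups. Of 7 neutrophil markers S100a8 was higher on Western diet in WT, though 4 of the 7 had differences below 0. Ly6g, Mmp8 and Cxcr2 were at background. Of 5 dendritic cell markers, Flt3 and Clec9a were higher on Western diet in WT and lower in EKO than in WT on Western diet. None of the measured markers of natural killer, B, mast or eosinophil cells, nor of regulatory T and type 2 innate lymphoid cells, passed in any comparison. Of these, 3 of 5 natural killer, 2 of 4 eosinophil and 2 of 8 mast cell markers were at background in all 4 groups. A change in those could have gone undetected. Between the genotypes on normal diet 7 of the 8 mast cell markers were below 0, and 5 of the 8 had an unadjusted p under 0.05 (limma). Some markers of fat's own cells moved too. Of 7 adipocyte markers 1, the adipokine Adipoq, was lower on Western diet in WT, at -0.45 ± 0.09 (adjusted p = 0.0101). Between EKO and WT on Western diet Adipoq was higher at 0.46 ± 0.09 (adjusted p = 0.00586), and leptin, Lep, lower at -1.14 ± 0.26 (adjusted p = 0.0178). Of 5 progenitor and fibroblast markers, the collagen gene Col1a1 was lower in that comparison, at -0.62 ± 0.10 (adjusted p = 0.00278). Yet 3 of the 5 had differences above 0 there, and the median was 0.07. None of the 5 passed with diet in WT. What part any of these cells had in the interleukin and receptor differences was not tested.

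Mesothelial markers, like Il17re, were lower on Western diet in WT. Of 6 measured, 5 (Upk3b, Upk1b, Wt1, Krt19 and Lrrn4) passed as lower in that comparison, and Upk3b was higher in EKO than in WT on Western diet. Between the genotypes on normal diet Il17re differed by -0.15 ± 0.10, while all 6 markers were below 0 with a median of -0.42. None of the 6 markers passed there. Their mean signal was 9.81 to 10.2 for EKO mice on Western diet, 9.58 to 10.3 for EKO mice on normal diet, 9.32 to 9.47 for WT mice on Western diet and 10.3 to 10.8 for WT mice on normal diet, and none was at background. The WT mice on Western diet were thus lowest for these markers as well as for Il17re; the part of the mesothelium in the Il17re difference was not tested.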

How the data were processed

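Total RNA was labelled for Affymetrix whole-transcript arrays, per the labels' protocols. The authors deposited 1 log2 value for each probe set on each array; the submitters' processing notes name RMA. No version, settings or genome build is given in the sources used here. RMA equalises the brightness distribution of the arrays, so a shift shared by most genes would be removed. Of 34760 rows, 21640 carry 1 gene symbol, 1321 several and 11799 none in the platform annotation; rows with 1 symbol gave 19937 genes, the probe set with the highest mean being kept.

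One mean per group was fitted to all 14 arrays with limma 3.58.1 (lmFit, eBayes) in R 4.3.3, with 5 contrasts and Benjamini-Hochberg adjustment over all genes, two-sided, passing under 0.05. The fit was checked on generated data with known changes. Each p-value sets a difference of group means against the spread between mice within groups, pooled over the 4 groups and moderated across genes. The number of arrays limits the precision of these p-values. Named genes are those that passed, the 3 smallest p per direction and contrast, and a set of well-known interleukins, 38 in all; other members are given as partners, by counts or as at background. Members and lists were chosen with earlier results of these data known. Alternatives changed centring, normalization, filter, prior, weights, probe set rule, arrays used, array background and the replicate number as a block. Figures used matplotlib 3.10.9.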

Additional observations from a re-analysis of the deposited data

Results flagged for a closer look

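The diet effect in EKO differed from that in WT for Il7r, with an interaction of -2.25, and for the Il13ra2 probe set, with one of -1.28, both by the limma interaction test (adjusted p = 0.00237 and 0.0168).

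Within EKO groups of 4, 1 animal was flagged as apart from the other 3 for 7 genes, among 76 gene and group combinations tested. Chance alone gives about 1 in 20. The flag sets the gap to the nearest animal against the range of the group. It can therefore mark a small gap where the other 3 agree closely, as for Il17re. Among EKO mice on Western diet, replicate 3 had Il12rb2 at 6.95 (others 6.65 to 6.70), replicate 1 had Il13 at 8.45 (others 8.01 to 8.08) and replicate 2 had Il27ra at 8.40 (others 8.62). Among EKO mice on normal diet, replicate 3 had Il15ra at 10.1 (others 9.81 to 9.85), replicate 2 had Il17re at 9.01 (others 9.06) and Il1r2 at 6.78 (others 6.60 to 6.63), and replicate 4 had Il31ra at 6.99 (others 7.18 to 7.22). The high values of Il12rb2, Il13 and Il1r2 and the low one of Il17re came from arrays of higher background; the part of background in them was not tested.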

How the results depend on the processing

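Calls of Il7r, Il13ra2, Il1rn and Il17re with diet in WT, and of Il7r, Il13ra2 and Il1rn between genotypes on Western diet, held under every alternative in which the gene was tested; no call of a named gene changed sign. With diet in WT 8 genes passed, against 4 without the dimmest 50% of genes (which leaves 21 of the 76), 22 with array weights (11 higher, 11 lower; 26.2% of all genes), 5 with only the groups compared, and 4 to 8 with 1 array left out. Between genotypes on Western diet 7 passed, against 3, 29 (14 higher, 15 lower; 34.1% of all genes) and 3 to 9 under the first, second and last of these. For the interaction 2 passed, against 0 without the dimmest 50%, 10 with array weights (3 higher, 7 lower; 11.7% of all genes), 5 with the background set as a block, 4 with background as covariate, 4 with the replicate number as a block, and 2 to 7 with 1 array left out; 7 came without replicate 1 of WT on Western diet. Filters and subsets test fewer genes or arrays; the cause of the other shifts was not tested. With diet in EKO and between genotypes on normal diet 0 passed under each alternative. Il1rn passed the interaction under 11 alternatives. Il17re passed it without the dimmest 25% of genes, with array weights, and with the background set, background covariate or replicate number in the fit. It also passed without replicate 2 of WT on normal diet or replicate 1 of WT on Western diet. Il10ra, Il20rb and Il27ra passed with array weights and without replicate 1 of WT on Western diet. Il10ra passed with the background set as a block too, and Il20rb on arrays of lower background. Over named genes and contrasts, 66 calls were lost, 72 gained and 4604 kept their side. The 4604 include genes that passed in neither fit, among them 956 results with diet in EKO and 956 between genotypes on normal diet. They are therefore no measure of how firm the calls were. Of the 66 lost calls, 42 were with diet in WT and 22 between genotypes on Western diet. With the replicate number as a block, 8 genes passed with diet in WT (5 higher, 3 lower): Il20rb and Il2rb lost their calls (adjusted p = 0.0597 and 0.0614), and Il18 and Il34 passed (0.0371 and 0.0241). Between genotypes on Western diet 8 passed (1 higher, 7 lower): Il1r2 lost its call (0.0539), and Il13ra1 and Il1rap passed (0.0464 and 0.0255). Deviations of same-numbered animals correlated at -0.59 to 0.64 (median 0.20), with all pairs of replicate 1 between 0.16 and 0.64, and those of differently numbered animals had a median of -0.095. Not every same-numbered pair was over 0.1 and the labels tie a number to no shared batch, so the block was kept as an alternative.

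Groups of 3 and 4 mice limit all comparisons: the median standard error of a log2 difference was 0.12 with diet in WT. For the 22 genes at background, and for any transcript of rare cells in a whole fat pad, absence of a difference shows only that none was detected at this signal. A single probe set was read for most genes, RNA level does not give protein, and secreted cytokines can act at low transcript levels. The WT mice on Western diet carry both sets of passed differences, and they are 3 animals.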
